A study of Homo sapiens with 20 samples.

Results

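Cytosolic ribosomal protein (RP) mRNAs were followed across loss of the m6A demethylase ALKBH5 and across a transcription block in human pancreatic cells. Members were the protein-coding genes with an RPL, RPS, RPLP or RPSA symbol, including paralog copies such as RPL22L1 and excluding pseudogenes, the RPS6K kinases and the mitochondrial RP genes. The rule found 85 genes, of 60624 identifiers in the human islet-like organoid (hILO) files and 60623 in the pancreatic progenitor (PP) files. They comprised 31 proteins of the small (40S) subunit, 43 of the large (60S) subunit, 3 of the ribosomal stalk (RPLP0, RPLP1 and RPLP2) and 8 paralogs.

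All cells were derived from MEL1, a human embryonic stem cell line that carries a green fluorescent protein reporter in the insulin gene. Wild-type (WT) cells were compared with ALKBH5-knockout (A5-KO) cells, made with the nuclease Cpf1 and grown from picked colonies, so that genotype cannot be told apart from any other difference between the lines. The hILOs had 2 libraries per genotype. The PPs had 2 libraries per genotype at 0, 1, 2 and 3 h of actinomycin D (Act D, 1 µg/ml), an inhibitor of transcription, giving 16 libraries. The labels do not say that replicates came from separate differentiations, so the p-values measure the spread between these samples, which may be technical.

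Ribosomal proteins assemble with ribosomal RNA into the small subunit, which decodes the mRNA, and the large subunit, which forms the peptide bond. Their mRNAs are among the most abundant in dividing cells and are classed as TOP mRNAs, because most begin with a 5′ terminal oligopyrimidine tract through which growth signals set their translation. They are also textbook examples of long-lived mRNAs, whereas mRNAs for ribosome assembly factors are often short-lived.

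The start of the mRNA was examined in the reference annotation (GRCh38, GENCODE v44, MANE Select transcripts), which records 1 start per gene and not the starts used in these cells. A pyrimidine run was defined as C followed by C or T in an unbroken run of at least 5 bases, of which the first 5 lie within the first 10 bases of the mRNA. It was present in 65 of 85 members (76.5%), against 2908 of 19061 protein-coding genes (15.3%). Among the paralogs, 2 of 8 had it. The first 20 bases are shown for members that carry the results below, with the run in capitals.
RPLP0 (chr12:120201092-120201111, minus strand): CCTTCTCTCgccaggcgtcc
RPLP1 (chr15:69452818-69452837, plus strand): CCCCTTTCCTCagctgccgc
RPS27 (chr1:153990762-153990781, plus strand): CCTTTCCggcggtgacgacc
RPL41 (chr12:56116633-56116652, plus strand): CTCTCggccttagcgccatt
RPL22 (chr1:6199576-6199595, minus strand): CCTTTCTaactccgctgccg
RPL22L1 (chr3:170870176-170870195, minus strand): CTCTCTgctctcgcggccga
RPL26L1 (chr5:172959424-172959443, plus strand): aCTTCCggccctgcgcactc
RPL7L1 (chr6:42879616-42879635, plus strand): gtagctaggagcggacgcca
RPS27L (chr15:63157458-63157477, minus strand): gcagatcgcttgcagcttgc
RPL36AL (chr14:49620607-49620626, minus strand): cctgttaggcgagagctgcg
RPL3 (chr22:39319604-39319623, minus strand): ctctaccggcgggatttgat
The stalk, RPS27, RPL41 and RPL22 begin with the run, and so does RPL22L1, while RPL26L1 has it after 1 base. RPL7L1, RPS27L and RPL36AL lack it. RPL3 begins with 4 pyrimidines, 1 short of the length set here.

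The ALKBH5 mRNA was low in every A5-KO library. It stood at 78.8 and 81.9 TPM (transcript abundance scaled by length and library total) in WT hILOs against 4.16 and 3.42 TPM in A5-KO hILOs. In PPs at 0 h it was 149 and 172 CPM (reads scaled by library total) in WT and 19.1 and 18.8 CPM in A5-KO. PP libraries held 30516384 to 35206514 reads, and the depth of the hILO libraries is unknown. Sums of several cell type markers differed between the genotypes. The summed level of 8 hepatic markers was 19750 to 20100 TPM in WT against 32140 to 32420 TPM in A5-KO hILOs, and that of 8 islet endocrine markers was 34620 to 36910 and 26310 to 27510 TPM. In PPs at 0 h the hepatic sum was 1090 to 1139 CPM in WT and 1896 to 1922 CPM in A5-KO. That of 8 mesenchyme markers was 137.7 to 143.5 and 225.6 to 229.2 CPM. That of 8 pancreatic progenitor markers was 899.6 to 1144 and 850.7 to 944 CPM, where the genotypes overlapped. Of 6 intestine markers the sum was 590.1 to 618.7 CPM in WT and 794.1 to 818.7 CPM in A5-KO. In hILOs it was 810.9 to 811.3 and 1056 to 1069 TPM. That of mesenchyme markers in hILOs was 12.47 to 18.37 and 47.02 to 60.57 TPM. Of 6 pluripotent markers the sum was 124.2 to 127.2 CPM in WT and 236.1 to 250.3 CPM in A5-KO PPs at 0 h. In hILOs it was 20.46 to 20.65 and 8.633 to 8.751 TPM. Of the progenitor markers PTF1A was below 0.1 CPM in WT PPs, while INS, GCG and IAPP were below 0.1 CPM in PPs of both genotypes. The part of these shifts in the results below was not tested, and in bulk samples fewer cells of a type cannot be told apart from less RNA per cell.

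Not all members could be followed in PPs. RPL10L, RPL39L and RPL3L, paralogs best known from testis or muscle, were near 0 in both stages (at most 1.48 TPM in any hILO library and 0.706 CPM in any PP library). A further 6 core members averaged under 10 CPM over the 16 PP libraries although their WT hILO means ran from 719 to 3119 TPM. They included RPS18 (0.406 CPM), RPS10 (0.796 CPM), RPL17 (1.30 CPM), RPL36A (2.51 CPM) and RPS9 (3.03 CPM). For RPS10, RPL17 and RPL36A, 43.8% to 96.9% of the mRNA lies in exons of another annotated gene, but for RPS18 and RPS9 none does. The cause was not tested, and values of these 6 genes in PPs are given only as measured. The remaining 76 members averaged at least 10 CPM and are called the well-measured members of the PP libraries.

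The RP mRNAs took a smaller share of the library in A5-KO than in WT hILOs. The share was 12.6% and 12.3% of the listed TPM in the WT libraries and 9.94% and 10.3% in the A5-KO libraries, with no overlap. The means were 12.5% ± 0.211 (SD, n = 2) and 10.1% ± 0.233 (SD, n = 2), a difference of -2.39 percentage points. Both subunits moved alike: the 40S members held 5.28% and 5.09% in WT and 4.29% and 4.38% in A5-KO, and the 60S members held 6.61% and 6.53% in WT and 5.03% and 5.27% in A5-KO. The 8 paralogs together held 0.0856% to 0.0907% in the 4 libraries, and there the genotypes overlapped. Permutation tests on the shares were computed but are not reported here, since the shares are sums over a chosen list.

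**Figure D1:**
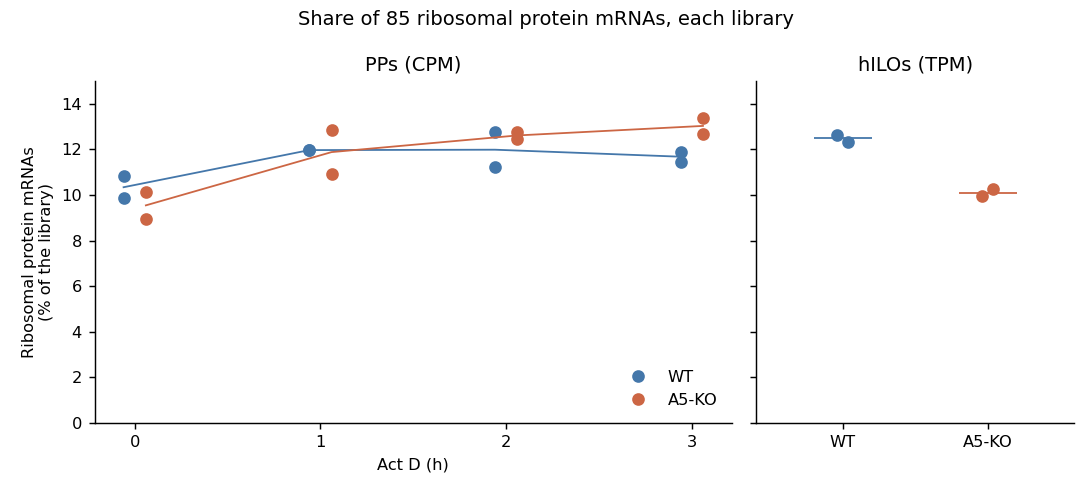
Share of the 85 RP mRNAs in each library, in percent of the summed CPM (PPs, left, by hours of Act D) or of the summed listed TPM (hILOs, right); points are libraries, lines and bars are means of 2 libraries. The hILO genotypes do not overlap, whereas in PPs at 0 h they do, and at 3 h both A5-KO libraries (12.7% and 13.4%) lie above both WT libraries.

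Gene by gene, 55 of the 82 members tested in hILOs fell in A5-KO and none rose (limma on log2(TPM + 1), Benjamini-Hochberg adjusted p below 0.05 over 17300 genes). Over all genes tested the background was 7.32% called lower and 5.27% called higher. At an unadjusted p below 0.05, 66 members were lower and 2 higher, against 18.7% of all genes lower and 12.2% higher. The median log2 change of the members was -0.32, against -0.06 for all genes tested. Both A5-KO libraries lay below both WT libraries for 71 of 82 members, a pattern seen for 37.1% of all genes tested. Under quantile normalization 32 members were lower and 1 higher, against 5.99% and 6.43% of all genes. Without the filter on low values 4 were lower, against 0.702% of all genes. Leaving out any 1 of the 4 libraries left 2 (without WT replicate 2), 4 (without WT replicate 1), 12 (without A5-KO replicate 1) or 15 (without A5-KO replicate 2) members called lower, against 0.422% to 1.32% of all genes, with a median log2 change between -0.36 and -0.31.

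The mRNAs of the stalk proteins, which recruit the translation factors with GTPase activity, all fell. RPLP0, the scaffold of the stalk, was 3206 and 3045 TPM in WT against 2484 and 2478 TPM in A5-KO hILOs (log2 change -0.33, SE 0.034, limma adjusted p = 0.0131). RPLP1 was 1192 and 1135 TPM in WT against 884 and 871 TPM in A5-KO (log2 change -0.41, SE 0.035, limma adjusted p = 0.00973). RPLP2 was 1746 and 1735 TPM in WT against 1343 and 1389 TPM in A5-KO (log2 change -0.35, SE 0.029, limma adjusted p = 0.00882). In each case the groups did not overlap.

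RPL5 and RPL11, which with 5S ribosomal RNA can bind the p53 regulator MDM2, fell by similar amounts. RPL5 was 1561 and 1666 TPM in WT against 1297 and 1267 TPM in A5-KO hILOs (log2 change -0.33, limma adjusted p = 0.0200). RPL11 was 1764 and 1774 TPM in WT against 1419 and 1331 TPM in A5-KO (log2 change -0.36, limma adjusted p = 0.0151). On the 40S side, RPS6, the substrate of the S6 kinases, had a log2 change of -0.30 (limma adjusted p = 0.0242), RPS14, a gene whose deletion is linked to a form of myelodysplastic syndrome, one of -0.37 (limma adjusted p = 0.0312) and RPSA, also known as the laminin receptor, one of -0.48 (limma adjusted p = 0.0227).

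RPL3, a core 60S protein near the peptidyl transferase centre, stood apart. It was 3247 and 3800 TPM in WT against 1042 and 940 TPM in A5-KO hILOs with a gap far wider than the spread of either group. Its log2 change of -1.83 (SE 0.096, limma adjusted p = 0.00409) was the sole one over 1.5-fold among the called members, a class that held 4.09% of all genes tested. In PPs at 0 h RPL3 was 4207 and 4367 CPM in WT and 3741 and 3970 CPM in A5-KO, a log2 change of -0.15 (limma adjusted p = 0.220). RPS19, the gene most often mutated in Diamond-Blackfan anaemia, and RPL31 had the next largest declines in hILOs but did not pass the test. RPS19 was 942 and 823 TPM in WT against 211 and 620 TPM in A5-KO (log2 change -1.28, limma adjusted p = 0.201). RPL31 was 1524 and 2301 TPM in WT against 1152 and 573 TPM in A5-KO (log2 change -1.20, limma adjusted p = 0.134). The replicates of both genes differed by over 1.5-fold in A5-KO, as did those of RPL6, RPL28 and RPL37A, among others.

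The largest positive changes in hILOs also did not pass the test. RPL37A was 457 and 440 TPM in WT against 390 and 1270 TPM in A5-KO, so that 1 library carried its log2 change of 0.65 (limma adjusted p = 0.504). RPS27A, which encodes a fusion of ubiquitin and a 40S protein, was 727 and 740 TPM in WT against 705 and 1025 TPM in A5-KO (log2 change 0.21, limma adjusted p = 0.496).

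**Figure D2:**
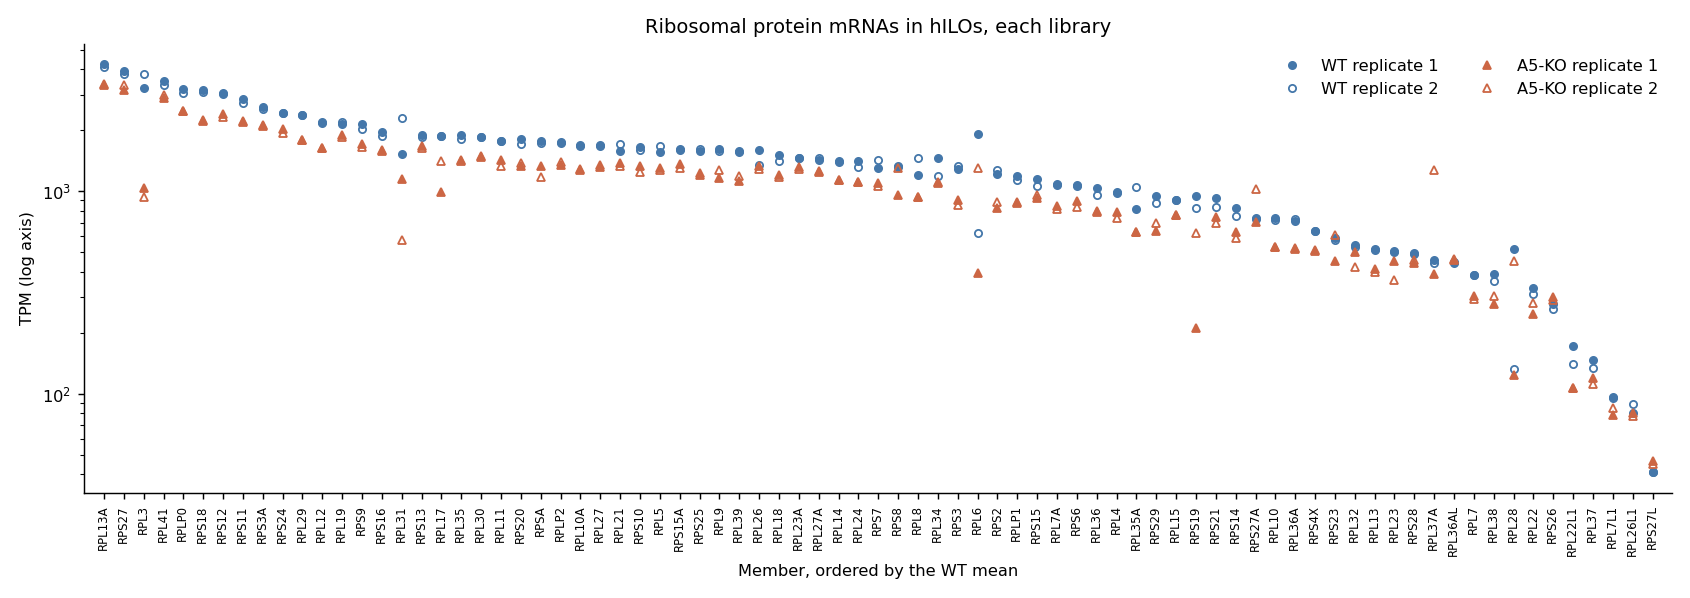
TPM (log axis) of 79 of the 82 members tested, in each of the 4 hILO libraries, ordered by the WT mean; circles are WT, triangles A5-KO, filled symbols replicate 1 and open symbols replicate 2. Most members have both triangles just below both circles, RPL3 has the widest gap between genotypes, and RPL6, RPL28, RPL31, RPL37A and RPS19 have wide gaps between replicates.

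In hILOs none of the 5 paralogs tested was called by limma. At an unadjusted p below 0.05, 2 were lower and 1 was higher, against 18.7% and 12.2% of all genes. RPL22L1, which can take the place of RPL22 in the 60S subunit, was 173 and 140 TPM in WT against 107 and 107 TPM in A5-KO (log2 change -0.53, limma adjusted p = 0.0524). RPL22 itself was 334 and 309 TPM in WT against 247 and 281 TPM in A5-KO (log2 change -0.29, limma adjusted p = 0.0947). RPL36AL was 447 and 441 TPM in WT against 455 and 464 TPM in A5-KO (log2 change 0.05), while its partner RPL36A was 711 and 727 TPM in WT against 526 and 521 TPM in A5-KO (log2 change -0.46, limma adjusted p = 0.00603). RPS27L, a target of p53 that shares most of its protein with RPS27, was 41.0 and 41.2 TPM in WT against 46.4 and 45.0 TPM in A5-KO (log2 change 0.15, limma adjusted p = 0.161). RPS27 was 3918 and 3807 TPM in WT against 3142 and 3348 TPM in A5-KO (log2 change -0.25, limma adjusted p = 0.0322). The longest run of identical bases between a paralog's mRNA and its partner's was 11 to 67 bases.

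In hILOs mRNAs with related roles are set beside all genes, of which 7.32% were called lower and 5.27% higher. Of 18 other TOP mRNAs, which encode elongation and initiation factors and proteins such as NPM1 and the ribosomal protein fusion FAU, 12 fell and none rose, with a median log2 change of -0.31. Examples were NAP1L1 (log2 change -0.72, limma adjusted p = 0.00574) and HNRNPA1 (log2 change -0.50, limma adjusted p = 0.00916). Of 26 ribosome biogenesis genes, 10 fell and 1 rose, with a median of -0.29. FBL, the methyltransferase of box C/D snoRNPs, changed by -0.70 (limma adjusted p = 0.0214), and NOP10, of the box H/ACA snoRNPs, by 0.20 (limma adjusted p = 0.0288). Of 78 mitochondrial RP genes, 1 fell and 2 rose, with a median of -0.04. Among the cytosolic RP members, the median log2 change was -0.33 for the 65 with a pyrimidine run and -0.25 for the 17 without. The 17 include the paralogs RPL7L1, RPS27L and RPL36AL. The median was -0.08 for the 1962 genes outside the members with a run, and -0.06 for the 10979 genes without a run.

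In PPs before Act D the genotypes overlapped in the RP share. It was 9.86% and 10.8% in WT and 8.96% and 10.1% in A5-KO (means 10.3% ± 0.679 and 9.54% ± 0.830, SD, n = 2 each). Of 80 members tested, 1 fell and none rose (limma on log2(CPM + 1), adjusted over 13911 genes), where 2.05% of all genes were called lower and 2.16% higher. At an unadjusted p below 0.05, 8 of the 80 members were lower and 1 higher, where 8.29% of all genes were lower and 11% higher, so that the share lower was near the background. The median log2 change was -0.10, against 0.03 for all genes, and 66 of 80 members were below 0. Replicates did not vary gene by gene: the library labelled replicate 2 was higher for 74 of 76 well-measured members in WT and for 73 of 76 in A5-KO. Members shared these shifts and do not count as separate evidence. With the replicate number as a block, 29 members were called lower and 1 higher. The RP share was lower in A5-KO within each replicate number. Whether the numbers pair the libraries is not stated, so the count at 0 h depends on that choice.

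The member called was RPL41, the smallest ribosomal protein. It was 1142 and 1323 CPM in WT and 815 and 976 CPM in A5-KO PPs (log2 change -0.46, SE 0.097, limma adjusted p = 0.0313). The call was lost without the filter on low values (limma adjusted p = 0.186), with all 16 PP libraries in 1 fit (0.142), without WT replicate 2 (0.243) and without A5-KO replicate 1 (0.0603). RPL23A, which lies at the exit of the peptide tunnel, was 261 and 303 CPM in WT and 205 and 230 CPM in A5-KO (log2 change -0.37, limma adjusted p = 0.0578). RPL30 was 82.4 and 122.7 CPM in WT and 66.0 and 83.7 CPM in A5-KO, so that the groups overlapped (log2 change -0.43, limma adjusted p = 0.210). Among the well-measured members the largest positive changes belonged to RPS27L (0.17), RPL22L1 (0.15) and RPS28 (0.10), none of which passed the test (limma adjusted p = 0.267, 0.359 and 0.821). The stalk mRNAs RPLP0, RPLP1 and RPLP2 had log2 changes of -0.10, -0.23 and -0.15, and none passed.

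**Figure D3:**
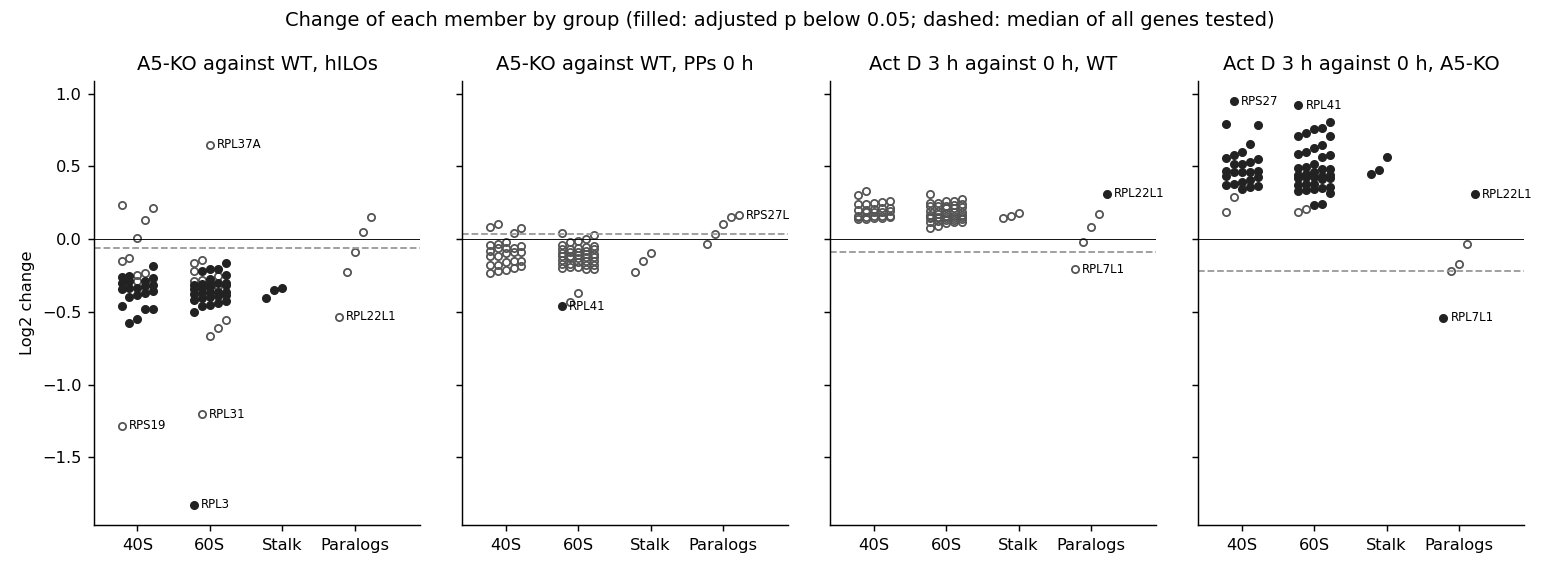
Log2 change of each member with a mean of at least 10, by 40S, 60S, stalk and paralog groups, in 4 comparisons; filled points have an adjusted p below 0.05 and the dashed line is the median of all genes tested. In hILOs RPL3 lies at -1.83 below the rest, and after 3 h of Act D in A5-KO PPs the core members lie above 0 while RPL7L1 lies at -0.54.

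During Act D the RP share was higher than at 0 h in both genotypes. All values were scaled to the total of each library, and the values converted to external spike-in RNA were not used here. A rise therefore means that an mRNA was lost more slowly than the library as a whole, not that its amount grew. In WT the share went from 10.3% ± 0.679 at 0 h to 12.0% ± 0.00873 at 1 h, 12.0% ± 1.09 at 2 h and 11.7% ± 0.309 at 3 h (SD, n = 2 each). In A5-KO it went from 9.54% ± 0.830 at 0 h to 11.9% ± 1.35 at 1 h, 12.6% ± 0.221 at 2 h and 13.03% ± 0.482 at 3 h (SD, n = 2 each). The gain over 3 h was 1.34 percentage points in WT and 3.49 in A5-KO. At 3 h the A5-KO libraries (12.7% and 13.4%) lay above the WT libraries (11.5% and 11.9%), while at 0, 1 and 2 h the genotypes overlapped. Mitochondrially encoded RNA held 10.9% to 14.1% of the PP libraries, and among the remaining RNA the RP share kept the same order at 3 h, with 14.5% and 15.3% in A5-KO against 13.1% and 13.7% in WT.

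After 3 h of Act D in A5-KO PPs, 68 of 79 members tested rose and 4 fell (limma on log2(CPM + 1) over all 16 libraries, adjusted over 13620 genes). Over all genes 11.4% were called higher and 41.4% lower. The median log2 change was 0.44 for the members and -0.22 for all genes. The rise exceeded 1.5-fold for 16 members, against 2.15% of all genes. This count was 66 under median-of-ratios scaling (11.4% of all genes) and by edgeR (12.5%), and 9 under quantile normalization (19.1%). It was 6 without A5-KO 0 h replicate 1 or 3 h replicate 2, and 30 without A5-KO 0 h replicate 2. All 3 stalk mRNAs, 25 of 28 40S members and 39 of 43 60S members rose. Both 3 h libraries lay above both 0 h libraries for 72 of 79 members, against 24.3% of all genes. In WT 1 member, RPL22L1, rose and none fell, where 1.26% of all genes were called higher and 13.9% lower. At an unadjusted p below 0.05, 9 WT members were higher and 1 lower, against 4.25% of all genes higher and 23.8% lower. The WT median was 0.17 against -0.09 for all genes, and 74 of 79 members were above 0.

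Calls accumulated with time in A5-KO, whereas in WT they were most at 2 h. In A5-KO 36 members had risen at 1 h and 58 at 2 h, with medians of 0.26 and 0.38, where 7.39% and 9.7% of all genes were called higher. In WT 7 had risen at 1 h and 22 at 2 h, with medians of 0.21 and 0.17, where 1.62% and 5.54% of all genes were called higher. RPL7L1 and RPL36A were called lower in WT at both of these times. The WT libraries at 2 h differed from each other for the whole list, the median log2 ratio of replicate 2 to replicate 1 being -0.21. So did the A5-KO libraries at 1 h, where that median was 0.24 and 73 of 76 members were higher in replicate 2.

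The excess of the members over all genes depended on the scaling. The median of all genes in A5-KO at 3 h was -0.22 as deposited, 0.03 under median-of-ratios scaling and 0.14 under quantile normalization. Relative to it the members stood 0.66 higher as deposited, 0.70 higher under median-of-ratios scaling and 0.0044 higher under quantile normalization, where 34 members were still called higher and 3 lower. In WT the corresponding excess was 0.25, 0.26 and -0.02. As deposited, 5632 genes were called lower and 1547 higher in A5-KO. Under median-of-ratios scaling this split was 4065 and 3821, and under quantile normalization 3432 and 4856.

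**Figure D4:**
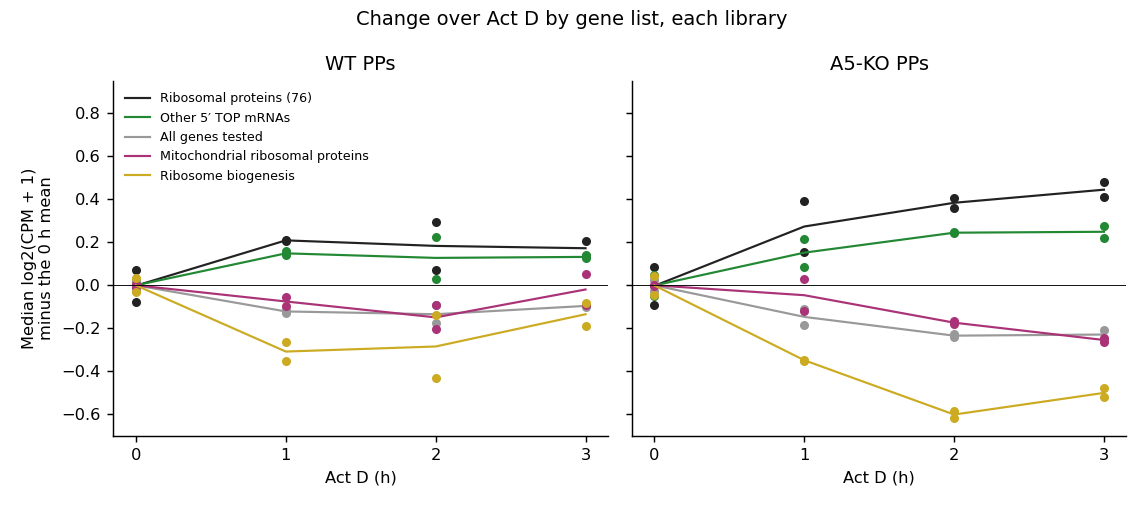
Median over each gene list of log2(CPM + 1) minus the log2 of the 0 h mean of the same genotype, in each PP library (points) with the mean of 2 libraries (lines), by hours of Act D. The RP mRNAs and the other TOP mRNAs lie above 0 from 1 h on, and the means of the ribosome biogenesis mRNAs lie below those of all genes tested.

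The largest rises in A5-KO were those of RPS27, RPL41 and RPL23A. RPS27 was 559 and 672 CPM at 0 h, 674 and 698 CPM at 1 h, 762 and 876 CPM at 2 h and 1035 and 1355 CPM at 3 h (log2 change 0.95, SE 0.19, limma adjusted p = 0.000586). In WT it was 619 and 842 CPM at 0 h, 951 and 1199 CPM at 1 h, 1202 and 819 CPM at 2 h and 745 and 1005 CPM at 3 h (log2 change 0.26, limma adjusted p = 0.420). The WT libraries at 0 and 3 h thus overlapped. Both WT libraries at 1 h exceeded both at 0 h (log2 change 0.56, limma adjusted p = 0.0438), and at 2 h only replicate 1 did. In A5-KO every later library exceeded both at 0 h.

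RPL41 was 815 and 976 CPM at 0 h and 1517 and 1885 CPM at 3 h in A5-KO (log2 change 0.92, SE 0.16, limma adjusted p = 0.000179). In WT it was 1142 and 1323 CPM at 0 h and 1323 and 1546 CPM at 3 h (log2 change 0.22, limma adjusted p = 0.430). At 1 h RPL41 was 1673 and 1750 CPM in WT (log2 change 0.48, limma adjusted p = 0.0456) and 1016 and 1421 CPM in A5-KO. RPL41 was also the member that was lower in A5-KO at 0 h, and both comparisons use those same 0 h libraries. RPL23A went from 205 and 230 to 325 and 447 CPM in A5-KO (log2 change 0.81, limma adjusted p = 0.00244).

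The stalk mRNAs rose by smaller amounts in A5-KO. RPLP0 went from 4078 and 4472 CPM at 0 h to 5731 and 5932 CPM at 3 h in A5-KO (log2 change 0.45, SE 0.080, limma adjusted p = 0.000185). In WT it went from 4432 and 4696 to 5256 and 4922 CPM (log2 change 0.16, limma adjusted p = 0.219). RPLP1 and RPLP2 had log2 changes of 0.57 and 0.48 in A5-KO and of 0.18 and 0.15 in WT. RPL5, RPL11, RPSA, RPS14 and RPS19 had changes of 0.38, 0.43, 0.46, 0.47 and 0.56 in A5-KO, all called, and of 0.19, 0.19, 0.21, 0.16 and 0.14 in WT, none called. The largest WT changes at 3 h among well-measured members were those of RPS29 (0.33), RPL22L1 (0.31) and RPL21 (0.31).

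The length of the mRNA did not separate the members. In A5-KO at 3 h the median log2 change was 0.47 for the 19 well-measured members outside the paralogs with an mRNA under 600 bases and 0.45 for the 52 longer ones. The Spearman correlation between length and change over these 71 genes was -0.19, a description across genes that share libraries. The 60 well-measured members with a pyrimidine run had a median change of 0.47 and the 16 without it one of 0.36. For the 1817 genes outside the members with a run the median was -0.19, and for the 10271 genes without a run it was -0.24.

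Of the 5 paralogs measured in PPs, 1 rose and 1 fell in A5-KO at 3 h, and the rest were not called. Over all genes 11.4% were called higher and 41.4% lower. The median log2 change of the 5 was -0.17 against 0.45 over the 76 well-measured members. RPL7L1, a pre-60S assembly factor related to RPL7, was 219 and 211 CPM at 0 h, 158 and 161 CPM at 1 h, 156 and 146 CPM at 2 h and 152 and 143 CPM at 3 h in A5-KO (log2 change -0.54, SE 0.068, limma adjusted p = 6.16e-06). In WT it was 209 and 211 CPM at 0 h, 164 and 165 CPM at 1 h, 159 and 164 CPM at 2 h and 186 and 178 CPM at 3 h (log2 change -0.21, limma adjusted p = 0.0523). It was called lower in WT at 1 h (log2 change -0.35, limma adjusted p = 0.00151) and at 2 h (-0.38, limma adjusted p = 0.000594). In both genotypes every library with Act D lay below both libraries without it.

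RPL7 ran the other way, from 1766 and 1903 to 2411 and 2562 CPM over 3 h in A5-KO (log2 change 0.44, limma adjusted p = 0.00198). In WT it went from 1855 and 1989 to 2264 and 2309 CPM (log2 change 0.25, limma adjusted p = 0.120).

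RPL22L1 had a positive change in both genotypes. It was 98.9 and 108 CPM at 0 h and 127 and 130 CPM at 3 h in A5-KO (log2 change 0.31, limma adjusted p = 0.0163), and 91.1 and 94.5 CPM at 0 h and 119 and 113 CPM at 3 h in WT (log2 change 0.31, limma adjusted p = 0.0456). The WT call rested on single libraries, and was lost without either WT library at 0 h or either at 3 h, among others. Its partner RPL22 had changes of 0.38 in A5-KO (limma adjusted p = 0.00659) and 0.21 in WT (limma adjusted p = 0.206).

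RPS27L, RPL36AL and RPL26L1 had log2 changes of -0.17, -0.22 and -0.03 in A5-KO at 3 h, none of which passed the test, and in A5-KO all of these turned positive under median-of-ratios scaling (0.11, 0.07 and 0.25). In WT they were 0.17, -0.02 and 0.09.

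The 3 other members called lower in A5-KO at 3 h were RPL17, RPL36A and RPS9, all below 10 CPM in PPs. RPL36A, for example, went from 5.69 and 4.72 to 1.99 and 1.71 CPM (log2 change -1.12, limma adjusted p = 9.36e-05). In WT it was called lower at 1 h (log2 change -1.04, limma adjusted p = 0.00071) and 2 h (-1.15, limma adjusted p = 0.000234), but not at 3 h.

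Of 26 ribosome biogenesis mRNAs, 17 fell and 2 rose in A5-KO at 3 h of Act D. Over all genes in A5-KO 41.4% were called lower and 11.4% higher. The median log2 change of the biogenesis mRNAs was -0.50 against -0.22 for all genes. In WT 5 fell and none rose, with a median of -0.14 against -0.09 for all genes, of which 13.9% were called lower. In A5-KO RRS1, BYSL and BRIX1, all pre-ribosome assembly factors, changed by -2.96, -2.41 and -2.30 (limma adjusted p = 2.11e-06, 9.71e-08 and 9.85e-08). Of 17 other TOP mRNAs tested in A5-KO, 10 rose and 1 fell, with a median of 0.25. EEF1A1, the elongation factor that delivers aminoacyl-tRNA, went from 21182 and 21929 to 28164 and 28843 CPM (log2 change 0.40, limma adjusted p = 0.00209), while NPM1, a nucleolar chaperone, had a change of -0.20 (limma adjusted p = 0.0317). Of 73 mitochondrial RP mRNAs tested, 1 rose and 33 fell in A5-KO, with a median of -0.27. The share that fell was near the 41.4% of all genes called lower. In WT none of these mitochondrial RP mRNAs was called. At an unadjusted p below 0.05, 4 were higher and 6 lower in WT, against 4.25% of all genes higher and 23.8% lower.

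The test of the genotypes against each other gave a different count from the tests within each genotype. The slope of log2(CPM + 0.1) over 0, 1, 2 and 3 h was compared between A5-KO and WT in 1 fit. No member passed (limma, adjusted over 13620 genes), where 0.0661% of all genes had a higher and 2.61% a lower slope in A5-KO. At an unadjusted p below 0.05, 10 members had a higher slope and none a lower one, against 2.36% and 20.0% of all genes, and edgeR on the recovered reads also called none. The median difference was 0.09 log2 units per hour for the members and -0.07 for all genes, and 72 of 79 members were above 0. RPL41 had the largest difference (0.27 log2 units per hour, SE 0.094, limma adjusted p = 0.109), followed by RPL30 (0.25, limma adjusted p = 0.345) and RPS27 (0.24, limma adjusted p = 0.196). At the other end among the well-measured members stood RPL7L1 (-0.11), RPS27L (-0.07) and RPL36AL (-0.06). When the 0 and 3 h libraries alone were used, 8 members had a higher slope and 2 a lower one, against 2.14% and 20.1% of all genes in that fit.

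Compared at single times, A5-KO PPs differed from WT in 1 member at 1 h, where 4.76% of all genes were called higher and 3.38% lower. This was RPL36A, which was higher and near 0 CPM in all PP libraries. At 2 h the sole member called was RPL34, which was higher (log2 difference 0.55, limma adjusted p = 0.0203), where 4.82% of all genes were called higher and 7.64% lower. At 3 h 6 members, among them RPL8, RPL37A, RPL38, RPS21 and RPS29, were higher and RPL7L1 was lower, where 4.84% of all genes were called higher and 26.4% lower. These log2 differences ranged from 0.25 for RPL8 (limma adjusted p = 0.0302) to 0.54 for RPS29 (limma adjusted p = 0.0483), and RPL7L1 stood at -0.30 (limma adjusted p = 0.00335). The median difference over the members was -0.01 at 1 h, 0.08 at 2 h and 0.15 at 3 h, against 0.03, -0.11 and -0.13 for all genes tested.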

How the data were processed

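RNA-seq libraries from 4 hILO and 16 PP samples were used. The authors trimmed reads with fastp and aligned them to hg38 with HISAT2 2.1.0. The hILO values were deposited as TPM, quantified by the authors with StringTie, and the mitochondrially encoded genes are listed at 0. The library sums over the listed genes were 924887 and 922614 in WT and 897038 and 887320 in A5-KO. The main gene-by-gene fit in hILOs was not rescaled for this difference. The PP values were deposited as CPM, computed by the authors after removing the spike-in RNA. Their counter and annotation release are not given in the sources used here. Whole reads were recovered for 100% of the CPM values (tolerance 0.01 reads), giving 30516384 to 35206514 reads per library. Counting error on a PP share was within 0.0119 percentage points (95% Wilson intervals), and PCR copies are not independent molecules.

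Groups came from the labels. Symbols were matched by Ensembl identifier to GENCODE v44. limma 3.58.1 (trended eBayes) was fitted on log2(value + 1) to genes with a mean of at least 1, or on log2(CPM + 0.1) for slopes, and p-values were Benjamini-Hochberg adjusted over all genes tested. A fold change on this scale understates that of low genes. Count tests on the recovered reads (edgeR 4.0.16, DESeq2 1.42.0) were alternatives: at 0 h edgeR called 696 genes, DESeq2 841 and limma 585. At 3 h of Act D edgeR called 1890 genes in WT and 7847 in A5-KO, and it called 254 for the slope difference. The fits were also run on simulated data, in which genes varied independently. Those data held no shift shared by many genes of a library, as the members showed here, so they do not bear on such shifts. Other alternatives were the pseudocount, the filter, median-of-ratios and quantile scaling, each library left out, a replicate block and subsets of times.

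Members and lists were chosen with earlier results of these data known. Values are given for the paralogs and partners, the stalk, 7 members with roles outside the ribosome or in disease, and the 3 members that moved most each way with a mean of at least 10. RPL8, RPL38, RPS21, RPL17, RPL34, RPS9 and the members with discordant replicates were named after their values were seen. Some members are not reported here by name, but all enter the counts, medians and shares. Permutation tests on the shares are not reported here, and no test was run on medians over the members.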

Additional observations from a re-analysis of the deposited data

Results flagged for a closer look

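RPL22L1 and RPL36A moved in opposite directions between stages, with both A5-KO libraries on one side of both WT libraries each time. RPL22L1 had a log2 change of -0.53 in hILOs and 0.15 in PPs at 0 h. RPL36A had a log2 change of -0.46 in hILOs and 0.44 in PPs at 0 h, where it was at 3.47 and 3.63 CPM in WT and 5.69 and 4.72 CPM in A5-KO. Of these 4 changes only that of RPL36A in hILOs passed its test. The difference between stages was not tested, since the hILO and PP files hold different units.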

How the results depend on the processing

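The labels do not say whether replicate numbers pair the samples. Deviations of same-numbered libraries correlated at -0.0053 in hILOs. In PPs the correlation was 0.18 at 0 h and between -0.059 and -0.0094 at 1 to 3 h. At 0 h replicate 2 was higher than replicate 1 for most members in both genotypes. With the replicate block, 44 members were lower in hILOs and the share differed by -2.70 and -2.08 percentage points within numbers, 29 were lower and 1 higher in PPs at 0 h, and none rose over 3 h in WT. In hILOs, 4 members were lower without the filter on low values and 32 under quantile normalization, which called 1 higher, and the median was -0.26 under median-of-ratios scaling and -0.21 under quantile normalization. In PPs at 0 h, 0 members were lower without the filter or with all 16 libraries in 1 fit, and 2 under median-of-ratios scaling, quantile normalization or DESeq2. In WT over 3 h, 0 rose without the filter. In A5-KO over 3 h, 66 members rose by over 1.5-fold under median-of-ratios scaling (median 0.73) and by edgeR (median 0.72), but 9 under quantile normalization (34 called, median 0.14), against 16 as deposited. Among members with a mean of at least 10, an alternative chosen after seeing the data, 1 was lower. With 0 and 3 h alone, 2 slopes were lower and 8 higher.

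Leaving out 1 library gave 2 to 15 lower and 0 to 2 higher calls in hILOs, 0 to 12 lower in PPs at 0 h (12 without A5-KO replicate 2, 0 without A5-KO replicate 1 or WT replicate 2), 0 to 3 higher and 0 to 2 lower in WT over 3 h, and 0 to 3 higher slopes (3 without WT 0 h replicate 1). In A5-KO over 3 h it gave 48 to 70 higher, 6 to 30 of them over 1.5-fold (6 without 0 h replicate 1 or 3 h replicate 2, 30 without 0 h replicate 2), with medians of 0.35 to 0.53. The share difference ranged from -2.56 to -2.23 percentage points in hILOs, from -1.38 to -0.209 in PPs at 0 h and from 1.01 to 1.69 at 3 h, and its gain over 3 h from 0.859 to 1.82 in WT and from 2.90 to 4.07 in A5-KO. The lone library left in a group was assumed to vary like the others.

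Of 83 single-member results, 66 kept their sign. In hILOs, leaving out 1 library moved RPS27A between -0.058 and 0.48 and RPL37A between -0.20 and 1.5. In PPs at 0 h it moved RPS28 between -0.22 and 0.43 and RPL36AL between -0.088 and 0.026, and RPL7L1 was -0.0100 under median-of-ratios scaling, -0.0040 by edgeR and -0.0033 by DESeq2. In WT over 3 h it moved RPL30 between -0.39 and 0.54, RPL26L1 between -0.22 and 0.40, RPS27L between -0.077 and 0.42 and RPL36AL between -0.14 and 0.10, and RPL36AL was 0.080 under median-of-ratios scaling, 0.078 by edgeR and 0.055 under quantile normalization. In A5-KO over 3 h, median-of-ratios scaling gave 0.25 for RPL26L1, 0.066 for RPL36AL and 0.11 for RPS27L, edgeR 0.25, 0.062 and 0.11, and quantile normalization 0.43 for RPL26L1. For the slope difference, median-of-ratios scaling gave 0.0021 for RPS27L and 0.0096 for RPL36AL, edgeR 0.0076 for RPL36AL, and RPS27L ranged from -0.095 to 0.020 without 1 library. With 0 and 1 h alone it was 0.022 for RPL36AL, -0.40 for RPS27, -0.42 for RPL30 and -0.047 for RPL41. The causes of these shifts were not tested.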
